A study of Mus musculus with 8 samples.

Results

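The genes described here are 44 genes of DNA replication and S phase, listed by symbol, which were read in bulk RNA of the mouse left ventricle after myocardial infarction (MI) and after sham surgery. All 44 were present among the 24062 genes of the deposited count tables. All 44 were among the 15508 genes with enough counts to test when all 8 libraries were filtered together. The study asked how the heart transcriptome changes early after infarction. Tissue was cut from the left ventricular free wall of male C57BL/6 mice aged 8 to 12 weeks, with 2 mice in each of 4 groups: MI at 1 day, sham at 1 day, MI at 3 days and sham at 3 days. MI was made by tying off the left anterior descending coronary artery, and ischemic tissue was taken. Sham mice had surgery without the ligation, and each day had its own sham mice. No genotype, transgene or drug was given to any group in the labels.

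Before a cell divides it copies its DNA once. Origins are marked and licensed by loading the MCM helicase, the helicase is activated at the start of S phase, and polymerases copy both strands behind it while a sliding clamp holds them on the template. Enzymes of nucleotide supply, chromatin assembly and the replication checkpoint serve the same forks. Many of these genes are transcribed under E2F factors as cells pass from G1 into S phase. In the adult heart few cardiomyocytes are in cycle, and after an infarct cycling has been described mainly in immune cells, fibroblasts and endothelial cells.

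Libraries held 7382490 to 25041386 gene counts. Levels are given as counts per 10⁶ (CPM) of a library size adjusted by a scaling factor (TMM). On that scale 3 counts were worth 0.102 to 0.369 CPM. Letters A and B name the pair of libraries in each group. At 1 day the MI libraries were the shallowest, and library B stood apart: 92.2% of 1468 chemosensory receptor genes, a set chosen by symbol after the counts were seen, had reads in it. These genes are silent in most tissues, so low values in library B may include reads of another origin, which was not tested. The share with reads was 23.5% in MI library A, against 4.97% and 50.8% in the sham libraries of 1 day, and 4.09% to 7.83% in the libraries of 3 days. Sample numbers in the column names lay apart between MI and sham libraries, so a batch that followed surgery cannot be told apart from MI.

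The summed level of the 44 genes was about the same in MI and sham hearts at 1 day and several times higher in MI hearts at 3 days. At 3 days the sum was 2930 and 3142 CPM in the MI libraries, against 477 and 391.6 CPM in the sham libraries, a ratio of the group means of 6.99. At 1 day it was 380 and 440 CPM in the MI libraries, against 373 and 429 CPM in the sham libraries, a ratio of 1.02. The MI libraries of 3 days stood far above the other 6 libraries, which overlapped. In bulk tissue, more cells of a type and more RNA per cell cannot be told apart.

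**Figure D1:**
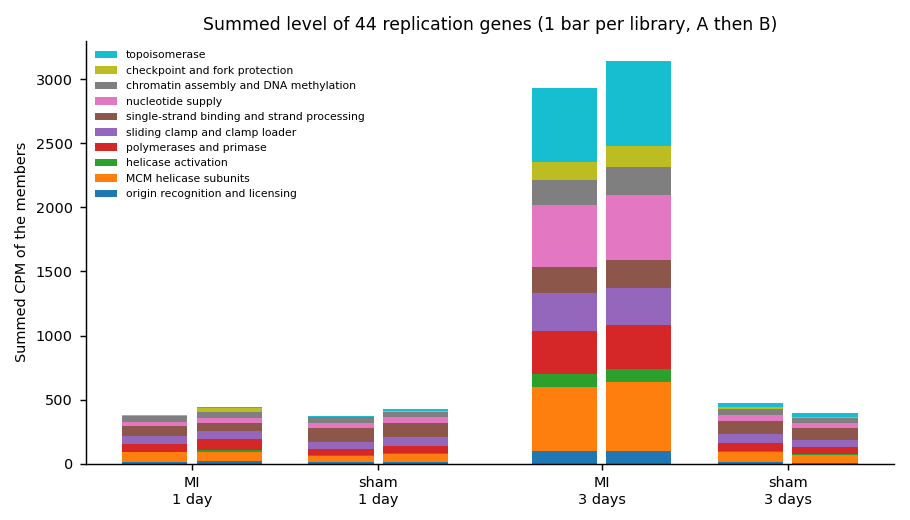
Summed CPM of the 44 replication genes (vertical axis) in each of the 8 libraries, with 1 bar per library in the order A, B and the role groups stacked by colour. The 2 MI bars at 3 days reach 2930 and 3142 CPM, and the other 6 bars lie between 373 and 477 CPM.

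At 3 days 43 of the 44 genes rose after MI and 0 fell (edgeR quasi-likelihood test over all genes, Benjamini-Hochberg adjusted p under 0.05). Over all genes tested, 31.7% rose and 23.7% fell. The median log2 fold change of the 44 genes was 2.90, beside 0.16 over all genes tested. Both MI libraries lay above both sham libraries for all 44 genes, which was so for 45.9% of all genes, and below them for 0 genes, against 35.1% of all genes. The change exceeded 2-fold in 42 genes, 4-fold in 37, 8-fold in 20 and 16-fold in 9. The single gene that missed the threshold was Rpa1, and the smallest change that passed it was that of Pola2.

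**Figure D2:**
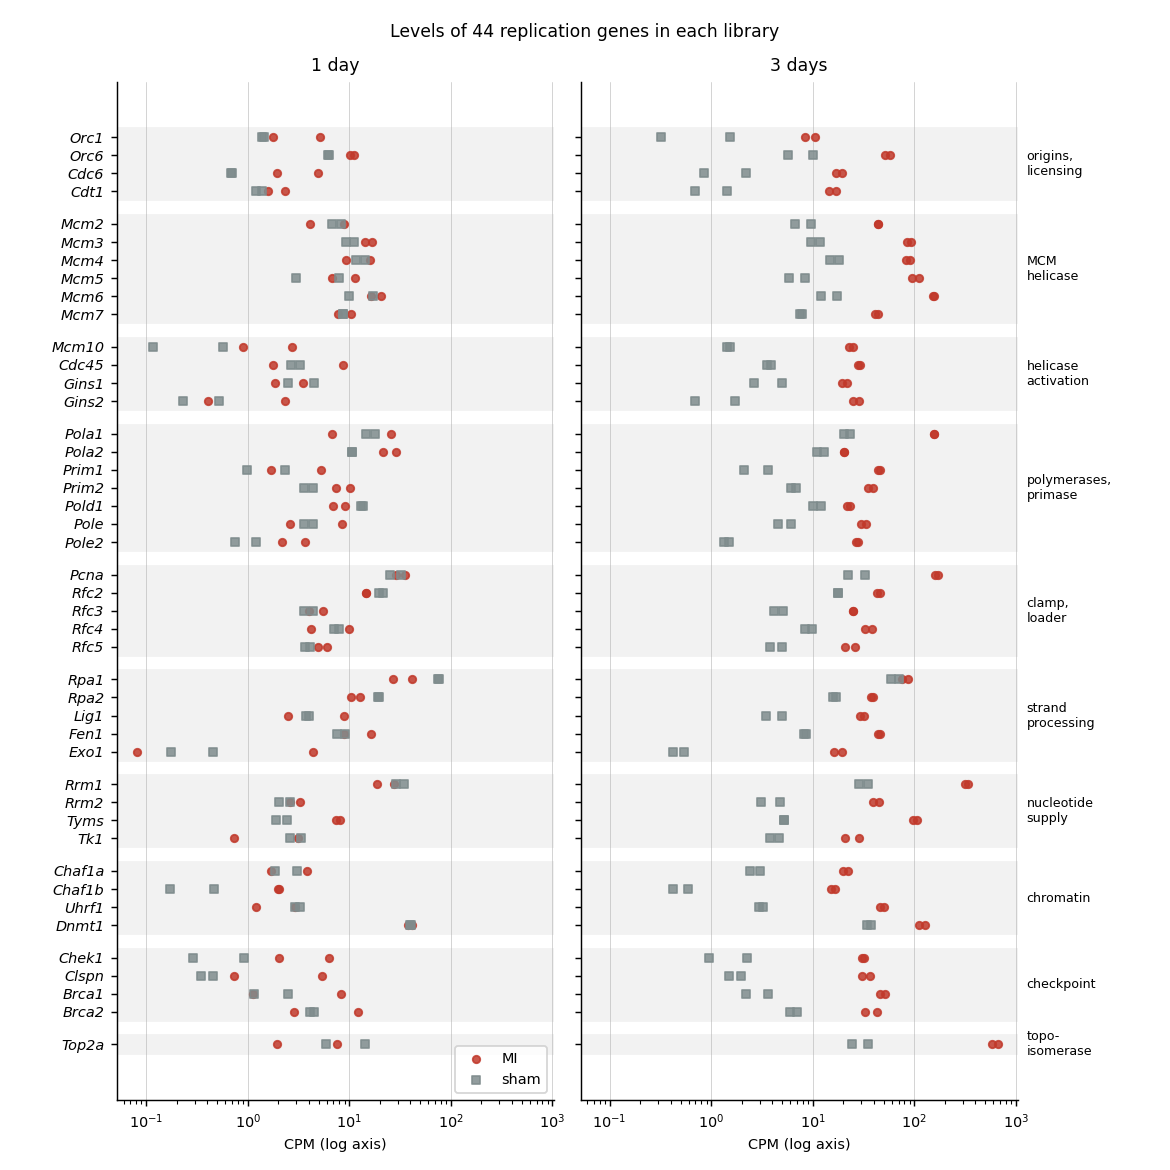
CPM (horizontal log axis) of each of the 44 genes in MI libraries (red circles) and sham libraries (grey squares) at 1 day (left) and 3 days (right), grouped by role. At 3 days all 44 genes have both MI points right of both sham points, and at 1 day this holds for 14 genes.

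Promoters of the listed genes are shown first, as a description of the sequence. The list favours genes known to follow the cycle, and the shares were not tested against those of all genes. RefSeq promoter windows of GRCm38.p6, from 250 bases before to 50 bases after a start site, were at hand for 37 of the 44 genes. The E2F-type motif TTTNGCGC, searched on both strands, was in the windows of 13 of these 37 genes (35.1%), against 1.57% of 27025 genes with a window. These 13 were Orc1, Cdt1, Mcm3, Mcm5, Mcm6, Mcm7, Pola1, Pole2, Rfc3, Lig1, Uhrf1, Dnmt1 and Clspn. A second form, TTTCCCGC, was in 6 (16.2%), against 1.24% of all genes, and either form was in 16 (43.2%), against 2.74%. Both forms can overlap on opposite strands, and a match of letters is not evidence of binding. The CCAAT box, the site of the factor NF-Y, was in 23 (62.2%), against 41.1%. The CHR-type motif TTTGAA, known from genes of late cell cycle, was in 5 (13.5%), against 20.2%. The median log2 fold change at 3 days was 3.34 for the 13 genes with TTTNGCGC and 2.87 for the other 24. For the second form TTTCCCGC it went the other way, 2.51 with and 3.34 without. It was 3.04 with and 2.70 without a CCAAT box, and 2.43 with and 3.19 without TTTGAA. These medians are a description without a test.

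Upstream stretches of 4 genes show these arrangements, 5′ to 3′ on the strand of the gene, without bases that lie inside the annotated gene. In the first 3 the capitals mark E2F-type motifs, and in Top2a they mark CCAAT boxes and CHR-type motifs on either strand. Mcm5 (chr8:75109339-75109467, plus strand) and Mcm6 (chr1:128359706-128359825, minus strand) are shown for their pair of overlapping E2F-type motifs on opposite strands. Mcm6 has a further copy nearer the start. Rfc3 (chr5:151651209-151651268, minus strand) has its copy next to the start. Top2a (chr11:99024200-99024429, minus strand) is shown as the largest contributor to the summed level in MI hearts of 3 days, and it has neither E2F-type form.
Mcm5: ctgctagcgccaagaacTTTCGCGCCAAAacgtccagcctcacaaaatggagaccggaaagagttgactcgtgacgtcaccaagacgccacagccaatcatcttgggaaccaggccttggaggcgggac
Mcm6: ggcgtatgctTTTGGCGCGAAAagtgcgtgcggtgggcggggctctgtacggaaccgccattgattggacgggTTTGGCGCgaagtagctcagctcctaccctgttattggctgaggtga
Rfc3: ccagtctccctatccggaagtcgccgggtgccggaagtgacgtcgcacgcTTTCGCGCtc
Top2a: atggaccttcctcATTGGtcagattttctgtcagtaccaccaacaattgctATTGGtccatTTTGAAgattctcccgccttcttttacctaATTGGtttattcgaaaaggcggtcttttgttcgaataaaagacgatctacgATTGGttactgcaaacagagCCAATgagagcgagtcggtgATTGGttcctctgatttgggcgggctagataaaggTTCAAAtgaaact

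**Figure D3:**
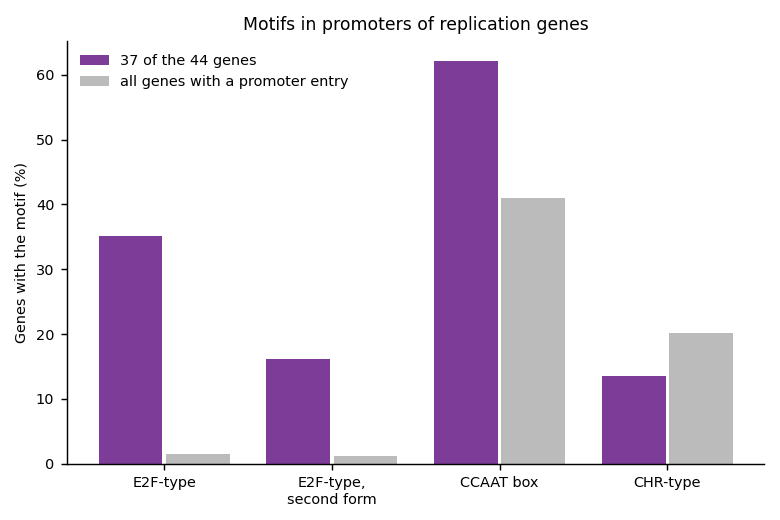
Share of genes (vertical axis, percent) whose promoter window holds each of 4 motifs, for the 37 replication genes with a window (purple) and for all 27025 genes with a window (grey). The E2F-type motif is in 35.1% against 1.57% of genes, and the CHR-type motif is in 13.5% against 20.2%.

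Among the genes that mark and license origins, all 4 rose at 3 days, with log2 fold changes of 2.79 to 3.87. Cdt1, which helps to load the helicase, had 14.6 and 16.8 CPM in MI hearts, against 1.44 and 0.691 CPM in sham hearts. The groups stood well apart and the gene changed by 3.87 on the log2 scale (SE 0.36, adjusted p = 1.75e-05), or by 4.495 without sham library A of 3 days. Orc6, a subunit of the origin recognition complex, had 57.6 and 51.4 CPM in MI hearts, against 10.1 and 5.69 CPM in sham hearts. It had the smallest change of these genes, 2.79 (SE 0.26, adjusted p = 1.9e-05). Orc1, the subunit whose level is known to follow the cell cycle, changed by 3.34 (SE 0.54), and Cdc6, the partner of Cdt1 in loading, by 3.57 (SE 0.42).

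All 6 subunits of the MCM helicase, which unwinds the template, rose at 3 days, with log2 fold changes of 2.40 to 3.86. Mcm5 (chr8:75109468-75128439) had the largest, with 94.5 and 111.9 CPM in MI hearts, against 8.45 and 5.79 CPM in sham hearts (3.86, SE 0.38, adjusted p = 2.48e-05). Mcm4 had the smallest, with 82.7 and 91.6 CPM in MI hearts, against 18.2 and 14.8 CPM in sham hearts (2.40, SE 0.25, adjusted p = 3.19e-05). Both genes were clear of overlap between the groups, as was Mcm2 with 43.6 and 43.99 CPM in MI hearts, against 9.52 and 6.70 CPM in sham hearts (2.43, SE 0.30, adjusted p = 9.26e-05). Mcm6 reached the highest CPM of the subunits, 154 and 157 CPM in MI hearts, against 17.4 and 12.0 CPM in sham hearts, with a log2 fold change of 3.41 (SE 0.28). The 6 proteins act in equal numbers in the helicase. Their RNA levels per length (RPKM, reads per kilobase of transcript and per 10⁶ reads, computed here from the reads and lengths in the transcript tables and summed by gene) spanned 3.93-fold in MI hearts and 3.30-fold in sham hearts of 3 days.

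The factors that turn the loaded helicase into a moving one also rose, 4 of 4. Gins2, a GINS subunit, had 25.1 and 28.4 CPM in MI hearts, against 1.71 and 0.691 CPM in sham hearts. The MI libraries lay far above both sham libraries (log2 fold change 4.47, SE 0.43, adjusted p = 2.12e-05), and without sham library A of 3 days the change was 5.27. Gins1, another GINS subunit, had 22.0 and 19.4 CPM in MI hearts, against 4.97 and 2.66 CPM in sham hearts, a smaller change of 2.44 (SE 0.35, adjusted p = 0.00027). Mcm10, which promotes activation, changed by 3.995 (SE 0.37), and Cdc45, which completes the active helicase with MCM and GINS, by 2.94 (SE 0.42).

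Of the polymerase and primase genes, 7 of 7 rose, with log2 fold changes of 0.76 to 4.26. Pole2, an accessory subunit of the leading-strand polymerase epsilon, had 26.4 and 27.8 CPM in MI hearts, against 1.497 and 1.33 CPM in sham hearts. That was the largest change of the group (4.26, SE 0.31, adjusted p = 4.77e-06). Pola2, an accessory subunit of the polymerase alpha-primase complex that starts each strand, had 20.4 and 20.2 CPM in MI hearts, against 11.1 and 12.9 CPM in sham hearts. The groups did not overlap, but the change was the smallest of all called genes (0.76, SE 0.21, adjusted p = 0.0136). Its adjusted p was 0.21 without either MI library of 3 days, 0.098 without sham library A of 3 days and 0.065 in reads of the transcript tables. The catalytic partner of Pola2, Pola1, changed by 2.85 (SE 0.41). The primase subunits Prim1 and Prim2 changed by 3.98 (SE 0.40) and 2.51 (SE 0.23). Pole, the catalytic subunit of polymerase epsilon, changed by 2.58 (SE 0.36), and Pold1, that of the lagging-strand polymerase delta, by 1.01 (SE 0.21).

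All 5 genes of the sliding clamp and its loader rose. Pcna, the clamp, had 172 and 159 CPM in MI hearts, against 32.9 and 22.1 CPM in sham hearts, and the groups were widely separated. It had the largest change of this group (2.59, SE 0.24, adjusted p = 1.6e-05). Rfc2, a small subunit of the clamp loader, had 42.9 and 46.1 CPM in MI hearts, against 17.8 CPM in both sham hearts. It had the smallest change here (1.32, SE 0.18, adjusted p = 0.00018), and Rfc3, Rfc4 and Rfc5 lay between, at 2.44, 1.94 and 2.42.

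Single-strand binding and strand processing held both extremes of the whole list in gene counts, with 4 of 5 genes called. Exo1, an exonuclease of strand resection and mismatch repair, had 16.1 and 19.2 CPM in MI hearts, against 0.535 and 0.425 CPM (10 and 8 counts) in sham hearts. In gene counts no other member had a larger change (5.19, SE 0.70, adjusted p = 0.00015), but the few counts in sham hearts make its size uncertain. In transcript-table reads it was 4.02 (adjusted p = 0.0041), below that of Tk1 among others. Rpa1, the large subunit of the protein that coats single-stranded DNA, had 75.1 and 86.6 CPM in MI hearts, against 69.9 and 59.3 CPM in sham hearts. Its groups lay close together and a change of 0.32 on the log2 scale (SE 0.21, adjusted p = 0.22) missed the threshold. With scaling by library size alone the adjusted p of Rpa1 was 0.027, and without MI library B of 3 days its log2 fold change was -0.004. The partner subunit Rpa2 changed by 1.22 (SE 0.19). Lig1, the ligase that joins lagging-strand fragments, changed by 2.85 (SE 0.39), and Fen1, the nuclease that trims them, by 2.42 (SE 0.27).

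All 4 enzymes of nucleotide supply rose. Tyms, which makes thymidylate, had 106 and 97.4 CPM in MI hearts, against 5.19 and 5.15 CPM in sham hearts. Replicates of Tyms lay close together in both groups (4.30, SE 0.21, adjusted p = 1.26e-06). Tk1, the salvage enzyme for thymidine, had 21.0 and 28.2 CPM in MI hearts, against 3.80 and 4.68 CPM in sham hearts (2.54, SE 0.34, adjusted p = 0.00017). Tk1 overlaps another gene, and in transcript-table reads its change was 4.48 (adjusted p = 9.6e-06). Rrm2, the small subunit of ribonucleotide reductase that is made in S phase, had 39.1 and 44.8 CPM in MI hearts, against 4.76 and 3.08 CPM in sham hearts (3.42, SE 0.26, adjusted p = 6.3e-06). The large subunit gene Rrm1 (chr7:102441695-102469771) was the second most abundant member by CPM in MI hearts of 3 days, at 316 and 335 CPM in MI hearts, against 34.9 and 28.3 CPM in sham hearts. Its log2 fold change was 3.36 (SE 0.23), within 1 SE of that of Rrm2.

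Genes of chromatin assembly and DNA methylation behind the fork rose too, 4 of 4. Chaf1b, a subunit of the histone chaperone CAF-1, had 15.1 and 16.5 CPM in MI hearts, against 0.588 and 0.425 CPM in sham hearts. The sham libraries held few reads of it, and the change was 4.95 (SE 0.38, adjusted p = 4.92e-06), or 4.25 in transcript-table reads. Dnmt1, the maintenance DNA methyltransferase, had 112 and 128 CPM in MI hearts, against 37.3 and 34.1 CPM in sham hearts. Its change was the smallest of this group (1.75, SE 0.17, adjusted p = 2.42e-05), from a level in sham hearts above that of most members. Uhrf1, which brings Dnmt1 to newly copied DNA, changed by 3.96 (SE 0.28), and Chaf1a by 2.96 (SE 0.33).

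In the checkpoint and fork-protection group all 4 genes rose. Chek1, the kinase of the replication checkpoint, had 32.1 and 30.4 CPM in MI hearts, against 2.25 and 0.956 CPM in sham hearts (4.28, SE 0.46, adjusted p = 4.12e-05). The change of Chek1 was 5.02 without sham library A of 3 days and 3.502 in transcript-table reads. Brca2, which protects stalled forks, had 32.5 and 42.7 CPM in MI hearts, against 7.06 and 5.95 CPM in sham hearts (2.53, SE 0.42, adjusted p = 0.0007). The groups were apart for both genes. Clspn, the adaptor through which Chek1 is activated, changed by 4.28 (SE 0.47), and Brca1, a repair partner of Brca2, by 4.07 (SE 0.52).

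Top2a (chr11:98992947-99024199), the topoisomerase that untangles copied chromosomes and is made mainly in cycling cells, was the most abundant member by CPM in MI hearts of 3 days, though not in sham hearts. It had 577 and 667 CPM in MI hearts, against 34.7 and 24.6 CPM in sham hearts. The groups were 4.39 apart on the log2 scale (SE 0.44, adjusted p = 2.79e-05), which is 21.01-fold. Top2a alone made up 19.7% and 21.2% of the summed CPM of the 44 genes in MI hearts, against 7.27% and 6.27% in sham hearts.

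**Figure D4:**
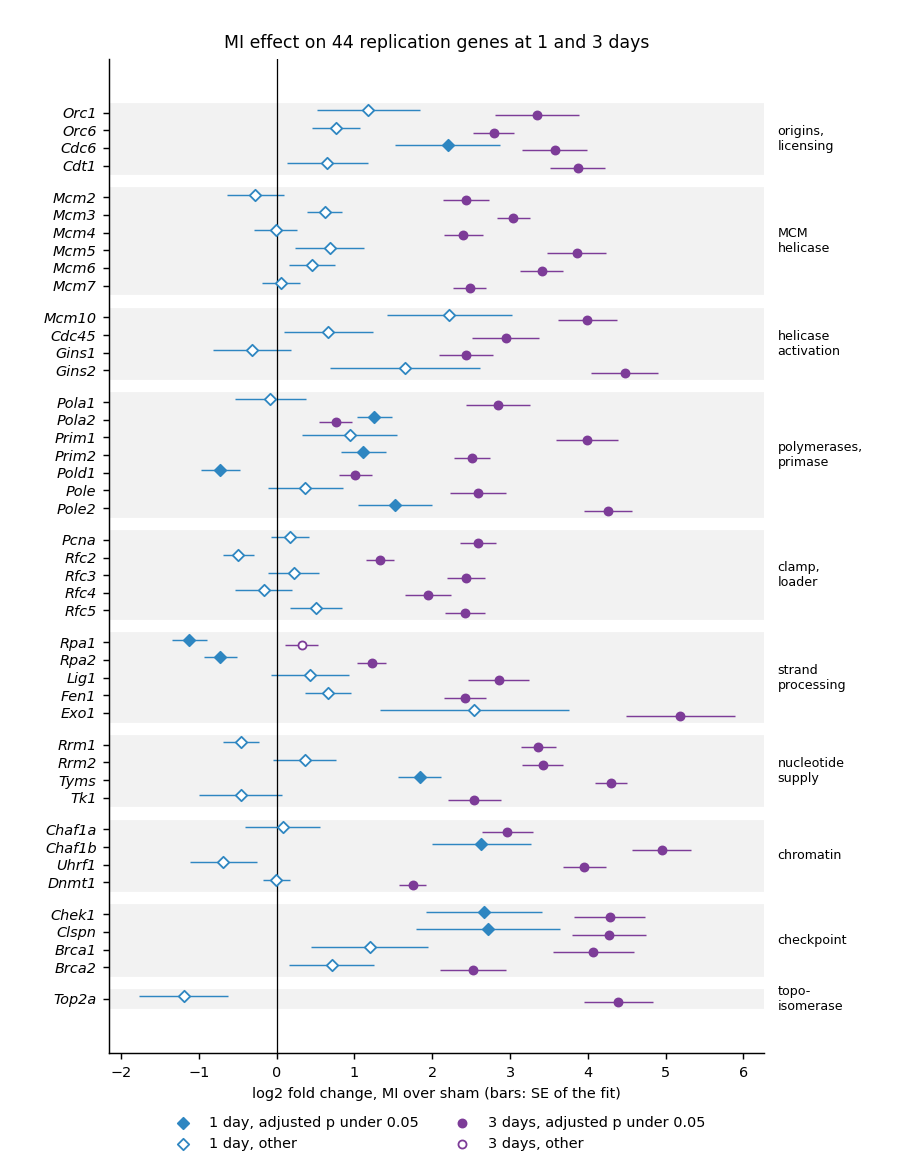
Log2 fold change of MI over sham (horizontal axis, bars are the SE of the fit) for the 44 genes by role, at 1 day (blue diamonds) and 3 days (purple circles). Filled symbols passed an adjusted p of 0.05: at 3 days all but Rpa1 are filled and lie right of 0, and at 1 day 8 filled symbols lie right of 0 and 3 left of it.

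Levels per length put the genes in another order than CPM. Pcna was highest in MI hearts of 3 days at 243 ± 0.75 RPKM (SD, n = 2), against 31.8 ± 7.7 RPKM in sham hearts. Top2a followed at 142 ± 21.8 RPKM, against 5.49 ± 0.51 RPKM in sham hearts, then Rrm1 at 80.03 ± 5.8 RPKM, Tyms at 71.8 ± 8.4 RPKM and Mcm6 at 54.03 ± 3.2 RPKM in MI hearts. Rrm1 and Tyms did not differ beyond their spread. The lowest were Cdt1 at 3.56 ± 0.33 RPKM and Orc1 at 3.29 ± 0.63 RPKM, which also did not differ beyond their spread. The median over the 44 genes was 18.4 RPKM in MI hearts, against 2.83 RPKM in sham hearts, and 0 genes in MI hearts and 11 in sham hearts were under 1 RPKM. Transcript-table reads per gene count had a median of 0.487 over the 44 genes in MI hearts and lay within 1.5-fold of it for 41, but were 1.08 for Pcna, 0.809 for Mcm7 and 0.242 for Cdt1, so per-length levels of these 3 depend on the table used.

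For 8 complexes or paralogous pairs, 15 further genes were read, chosen by complex after values had been seen. Of these, 12 rose and 1 fell at 3 days, with a median log2 fold change of 1.08 (range -1.14 to 2.34). The 16 listed genes of the same complexes had a median of 2.51 (range 0.32 to 4.47), and 15 rose. Among all genes tested, 31.7% rose and 23.7% fell at 3 days, with a median of 0.16. Orc2 to Orc5 changed by 0.59 to 1.43, against 3.34 for Orc1 and 2.79 for Orc6. Rfc1, the large subunit of the clamp loader, changed by 0.38 (SE 0.21, adjusted p = 0.15), and Pold2, a subunit of polymerase delta, by -0.01 (SE 0.19, adjusted p = 0.97). Rrm2b, the form of the reductase small subunit known from cells outside S phase, fell by 1.14 (SE 0.19, adjusted p = 0.00068), while Rrm2 rose. Top2b, the topoisomerase known from cells that do not divide, changed by 0.42 (SE 0.16, adjusted p = 0.043), against 4.39 for Top2a. The difference between listed and other subunits was not tested, since the list favours genes known to follow the cycle.

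**Figure D5:**
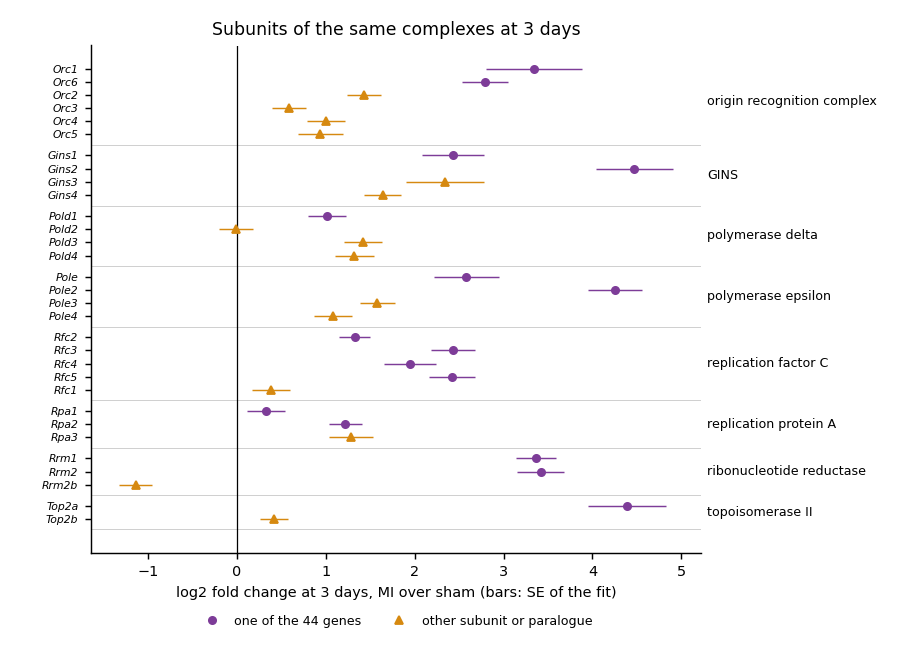
Log2 fold change of MI over sham at 3 days (horizontal axis, bars are the SE of the fit) for 16 listed genes (purple circles) and 15 other subunits or paralogues (orange triangles) of 8 complexes. Listed genes have a median of 2.51 and the others 1.08, and Rrm2b is the single gene that fell.

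Wider lists of the same process were read in the same fit, in which 31.7% of all genes rose and 23.7% fell at 3 days, with a median of 0.16. Of 35 other replication fork and origin genes, 28 rose and 0 fell at 3 days, with a median log2 fold change of 1.43. The largest changes were those of Ticrr, a factor of helicase activation (5.01, SE 0.80, adjusted p = 0.0004), and Dbf4, the activating subunit of the kinase that fires origins (4.01, SE 0.28, adjusted p = 4e-06). Ticrr had 7.30 and 10.2 CPM in MI hearts, against 0.374 and 0.159 CPM in sham hearts, and Dbf4 had 40.9 and 50.6 CPM in MI hearts, against 2.41 and 3.24 CPM in sham hearts. Without sham library A of 3 days the change of Ticrr was 5.73, and in transcript-table reads that of Dbf4 was 3.39. Of 18 other genes of nucleotide and chromatin supply, 13 rose and 2 fell (median 1.24), led by Hells, a chromatin remodeller (4.73, SE 0.46), and Asf1b, a histone chaperone (4.06, SE 0.36). Hells had 69.9 and 76.2 CPM in MI hearts, against 2.19 and 3.29 CPM in sham hearts, and Asf1b had 24.1 and 25.8 CPM in MI hearts, against 1.60 and 1.38 CPM in sham hearts. Of 22 fork repair genes, 18 rose and 0 fell (median 2.68).

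Regulators of entry into S phase did not move as 1 block. Of 30 genes of E2F, RB and G1/S control, 21 rose and 5 fell at 3 days, with a median of 1.34, where 31.7% of all genes rose and 23.7% fell. Ccna2, the cyclin of S phase and G2, had 122 and 138 CPM in MI hearts, against 5.56 and 4.68 CPM in sham hearts (4.67, SE 0.31, adjusted p = 3e-06). Mybl2, a transcription factor of the late cell cycle, had 5.66 and 7.76 CPM in MI hearts, against 0 and 0.691 CPM in sham hearts, and the fitted 4.26 (SE 0.62, adjusted p = 0.00015) depends on how the 0 is handled and was 3.28 to 9.97 with 1 library left out. The 5 that fell, named after their values were seen, were Tfdp2, E2f6, Rbl2, Lin52 and Ccnd2, by 2.67, 2.05, 1.17, 1.02 and 0.60 on the log2 scale. Rbl2, E2f6 and Lin52 are known from complexes that repress cell-cycle genes. Tfdp2 is a partner of E2F factors and Ccnd2 a cyclin of G1. Relatives of these genes in the list rose, among them Rbl1 (2.48), E2f7 (2.91), E2f8 (3.10), Lin9 (2.60) and Lin54 (0.96). E2f4, Lin37, Rb1 and Ccnd3 did not pass the test, and whether the falls mark a class of regulators was not tested.

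At 1 day the 44 genes split. Of these, 8 rose after MI (Cdc6, Pola2, Prim2, Pole2, Tyms, Chaf1b, Chek1 and Clspn), 3 fell (Pold1, Rpa1 and Rpa2) and 33 did not pass the test. Over all genes tested, 19.3% rose and 19.7% fell at 1 day, so the 8 of 44 are near the share of all genes. The median log2 fold change was 0.48, beside 0.12 over all genes. Both MI libraries lay above both sham libraries for 14 genes, where 34.7% of all genes did so, and below them for 6, where 32.6% did so. With scaling by library size alone, which moves the median of all genes to 0.40, 12 rose and 1 fell. With only the 4 libraries of 1 day, 42 of the 44 genes had enough counts to test.

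The 2 MI libraries of 1 day differed from each other more than those of any other group. The larger value was a median of 1.79 times the smaller over the 44 genes, and 20 genes were over 2-fold apart. In MI libraries of 3 days that median was 1.11 and 0 genes were over 2-fold apart. Exo1 had 4.43 CPM in MI library B (36 counts) and 0.0811 CPM in MI library A (1 count), against 0.174 and 0.460 CPM in sham hearts. Without MI library B, which held reads in 92.2% of the receptor genes, the median log2 fold change of the 44 genes was 0.08. The median over all genes tested was then -0.01. Without MI library A these medians were 0.465 and 0.249, so all genes moved as well as the 44. The part of the receptor-gene reads in these values was not tested.

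Tyms and Pola2 were the rises at 1 day that all 15 alternatives kept, and Rpa1 was the fall that all 15 kept. Tyms had 7.46 and 8.12 CPM in MI hearts, against 1.91 and 2.41 CPM in sham hearts (1.84, SE 0.28, adjusted p = 0.0011). Pola2 had 28.9 and 21.4 CPM in MI hearts, against 10.6 CPM in both sham hearts (1.25, SE 0.23, adjusted p = 0.0027). Its fitted change was larger than at 3 days, but the difference, 3 days minus 1 day, did not pass the edgeR test (-0.50, SE 0.31, adjusted p = 0.28). Rpa1 had 42.0 and 26.9 CPM in MI hearts, against 75.2 and 76.5 CPM in sham hearts (-1.12, SE 0.23, adjusted p = 0.0043). None of these 3 genes overlapped between the groups.

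The other calls at 1 day rested on lower counts or smaller changes. Chaf1b had 2.03 and 1.97 CPM in MI hearts, against 0.464 and 0.172 CPM (8 and 3 counts) in sham hearts (2.63, SE 0.64, adjusted p = 0.0099), and was called in 14 of 15 alternatives. Prim2 had 7.46 and 10.2 CPM in MI hearts, against 3.59 and 4.43 CPM in sham hearts (1.11, SE 0.29, adjusted p = 0.014), and was called in 12 of 15. Chek1 had 2.03 and 6.40 CPM in MI hearts, against 0.290 and 0.920 CPM in sham hearts (2.67, SE 0.74, adjusted p = 0.020), and was called in 11 of 15. These 3 were apart between the groups, yet without sham library B of 1 day their adjusted p values were 0.10, 0.073 and 0.061. Without sham library A of 1 day they were 0.15 for Prim2 and 0.16 for Chek1, and without MI library B of 1 day 0.099 for Chek1.

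Calls of Rpa2, Cdc6, Clspn, Pole2 and Pold1 were kept in fewer alternatives, between 4 and 9 of 15. Rpa2 had 12.7 and 10.5 CPM in MI hearts, against 19.5 and 19.2 CPM in sham hearts (-0.73, SE 0.21, adjusted p = 0.023). Cdc6 had 1.95 and 4.92 CPM in MI hearts, against 0.696 and 0.690 CPM in sham hearts (2.197, SE 0.67, adjusted p = 0.029). Without MI library B of 1 day, neither Cdc6 nor Pole2 was called. Clspn had 0.730 and 5.41 CPM in MI hearts, against 0.348 and 0.460 CPM in sham hearts (2.71, SE 0.92, adjusted p = 0.041). The high value of Clspn came from MI library B, and without that library its adjusted p was 0.41. Pole2 had 2.19 and 3.69 CPM in MI hearts, against 0.753 and 1.21 CPM in sham hearts (1.52, SE 0.47, adjusted p = 0.031), and its change was 0.38 in transcript-table reads. Pold1 had 9.01 and 6.89 CPM in MI hearts, against 13.6 and 13.1 CPM in sham hearts (-0.72, SE 0.25, adjusted p = 0.043). Without either sham library of 1 day, Rpa2, Cdc6, Clspn and Pole2 were not called (adjusted p 0.098 to 0.23).

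Pcna, Mcm2, Rrm2 and Top2a, which were read at both days, did not pass the test at 1 day. Pcna had 35.6 and 28.7 CPM in MI hearts, against 25.2 and 32.1 CPM in sham hearts (0.17, SE 0.24, adjusted p = 0.59). Mcm2 had 4.14 and 8.98 CPM in MI hearts, against 6.72 and 8.39 CPM in sham hearts (-0.27, SE 0.37, adjusted p = 0.58). Rrm2 had 3.25 and 2.58 CPM in MI hearts, against 2.03 and 2.59 CPM in sham hearts (0.36, SE 0.41, adjusted p = 0.50), and these 3 genes overlapped between the groups. Top2a had 1.95 and 7.63 CPM in MI hearts, against 5.85 and 14.2 CPM in sham hearts (-1.20, SE 0.57, adjusted p = 0.13). Its sham libraries also overlapped the MI libraries, and without MI library B its log2 fold change was -2.36 (adjusted p = 0.032).

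The MI effect was larger at 3 days than at 1 day in most of the genes, by a test of the difference itself. Of the 44 genes, 33 had a higher effect at 3 days and 0 a lower one, where 13.2% and 11.3% of all genes did so, and the median difference was 2.41, beside -0.04 over all genes. Top2a had the largest difference of log2 fold changes, 5.59 (SE 0.69, adjusted p = 0.00068), which was 4.67 without MI library A and 6.75 without MI library B of 1 day. The smallest that passed was that of Prim2, 1.39 (SE 0.37, adjusted p = 0.024). The 11 genes that did not pass were Orc1, Cdc6, Mcm10, Gins2, Pola2, Exo1, Chaf1b, Chek1, Clspn, Brca1 and Brca2. Among them Pola2 alone had a difference below 0, -0.50 (SE 0.31, adjusted p = 0.28). The count was 20 without sham library B of 1 day and 23 without either MI library of 3 days.

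Within MI hearts, 43 genes were higher at 3 days than at 1 day and 0 were lower, against 23.4% and 22.0% of all genes, with a median log2 change of 2.78, beside -0.03 over all genes. Top2a changed most, 7.15 (SE 0.55, adjusted p = 1.4e-05), with 577 and 667 CPM at 3 days, against 1.95 and 7.63 CPM at 1 day. Without MI library A of 1 day its change was 6.27, and without MI library B 8.32. Rpa1 had the smallest change that passed, 1.22 (SE 0.23, adjusted p = 0.0019), with 75.1 and 86.6 CPM at 3 days, against 42.0 and 26.9 CPM at 1 day, and without MI library B of 3 days its adjusted p was 0.054. Pola2 did not pass, at -0.32 (SE 0.21, adjusted p = 0.24). This contrast shares the MI libraries of both days with the effects above.

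Within sham hearts, 0 of 44 genes passed between 3 days and 1 day by edgeR, where 0.0% of all genes were higher and 0.0% lower. At an unadjusted p under 0.05 there were 5 members, Mcm10, Prim2, Tyms, Clspn and Top2a, all higher at 3 days, beside 7.81% of all genes. DESeq2 called 1 member, Tyms (1.24, adjusted p = 0.020), among 26 higher and 18 lower of 15508 genes, and limma-voom 0. With only the 4 sham libraries fitted, 42 of the 44 genes had enough counts to test and 0 passed. In the fit of all 8 libraries the median log2 change of the 44 genes was 0.30, beside -0.01 over all genes. Top2a had 34.7 and 24.6 CPM in sham hearts at 3 days, against 5.85 and 14.2 CPM at 1 day, without overlap (1.56, SE 0.44, unadjusted p = 0.0058).

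Cell type markers moved with the same groups. At 3 days all 10 macrophage and monocyte markers rose, with a summed level of 7115 and 7487 CPM in MI hearts, against 1750 and 891 CPM in sham hearts. Fibroblast markers rose in 6 of 8, with 15020 and 15100 CPM in MI hearts, against 4403 and 2161 CPM in sham hearts. Cardiomyocyte markers fell in 10 of 10, with 8737 and 8564 CPM in MI hearts, against 122100 and 184100 CPM in sham hearts, so the labelled tissue was recognisable in sham hearts and its markers were lower in infarcted tissue. Neutrophil markers rose in 5 of 6 at 3 days (811 and 436 CPM in MI hearts, against 209 and 105 CPM in sham hearts). They rose in 6 of 6 at 1 day (1940 and 952 CPM in MI hearts, against 199 and 145 CPM in sham hearts). Cardiomyocyte markers fell in 9 of 10 at 1 day (106400 and 116600 CPM in MI hearts, against 195000 and 170800 CPM in sham hearts). Fibroblast markers had 1 rise and 3 falls of 8 then, with 1583 and 1720 CPM in MI hearts, against 2316 and 2806 CPM in sham hearts. Macrophage and monocyte markers had 4 rises and 2 falls of 10 at 1 day. Their sums overlapped, with 979 and 1019 CPM in MI hearts, against 970.2 and 1219 CPM in sham hearts. Over all genes tested, 19.3% rose and 19.7% fell at 1 day, and 31.7% rose and 23.7% fell at 3 days.

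Markers of other cells moved less in 1 direction. Endothelial markers at 3 days had 3 rises and 1 fall of 8. Their sums were 1250 and 989 CPM in MI hearts, against 1082 and 914 CPM in sham hearts. Mural cell markers had 3 rises and 4 falls of 7. Over all genes tested, 31.7% rose and 23.7% fell at 3 days, so the endothelial rises are near that share. Of 8 lymphocyte markers tested, 2 rose, where 31.7% of all genes did (10.9 and 14.2 CPM in MI hearts, against 5.08 and 3.77 CPM in sham hearts). Atrial markers had 1 rise of 4, and 0 of 2 erythroid markers tested changed. No cardiomyocyte, macrophage, fibroblast, neutrophil, endothelial or mural marker was at 0 in any library. Which cells held the replication transcripts cannot be read from bulk tissue, and the part of the cell mixture in the changes was not tested.

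By RefSeq positions on GRCm38.p6, 11 of the 44 genes overlap another protein-coding gene: Orc1, Mcm7, Cdc45, Gins2, Pole2, Rfc4, Rpa1, Lig1, Fen1, Tk1 and Chaf1a. Whether the counting used strand is not given in the labels or notes, and for these genes reads of a neighbour may be included. The 44 genes lie on 15 chromosomes.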

How the data were processed

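Each group had 2 mice, per the series' design text. Libraries were made from ribosome-depleted total RNA and read from both ends, per the labels' protocols. The submitters' processing notes name the build mm10 and, among the tools, TopHat2 2.0.14, Bowtie2 2.2.5, HTSeq, SAMtools 0.1.2, FastQC and DESeq2. The deposited gene tables hold raw counts, per the file headers and whole-number values. The deposited transcript tables give read counts and lengths of 96535 transcripts, per the file headers. From these, reads were summed by gene name, and RPKM were computed here on each library's total in the table. Columns name the group but no replicate, and both sham columns of 1 day share a name, so A and B follow column order.

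Tables were joined by symbol (24062 genes). After edgeR's filterByExpr 15508 remained and 8554 were not tested. All 8 libraries were fitted by group in edgeR 4.0.16 (R 4.3.3, TMM, robust quasi-likelihood, 4 residual degrees of freedom, median prior 5.51), with 2-sided tests and Benjamini-Hochberg adjustment over all genes at 0.05. CPM use TMM library sizes. The SE is the size of the log2 change over the square root of F. Counting error limits values near 3 counts. The fit was run on simulated data in which all genes had the same spread and genes changed only in MI hearts of 3 days. That setting does not include the wider spread between the MI libraries of 1 day. Alternatives were RLE factors, library size alone, DESeq2 1.42.0, limma-voom (limma 3.58.1), no filter, only the 4 libraries compared, transcript reads (14567 genes tested) and each library left out.

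Members and lists were chosen with earlier results of these data known. Values of every library are given at 3 days for the largest and smallest change in each role group, Mcm2, Pcna, Rrm2, Top2a and any uncalled member, at 1 day for up to 10 called members and the same 4 genes, in the other contrasts for the extremes, and in related lists for the 2 largest changes, except in the fork repair list, where they are not reported here. Rrm1, Mcm6, Pold1 at 1 day, regulators other than Ccna2 and Mybl2, and further subunits were added after values were seen. Promoters are RefSeq's, GRCm38.p6, and windows of 7 members were not analysed here. List genes Pclaf, Adgre1 and Ly6g were not analysed here.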

Additional observations from a re-analysis of the deposited data

Results flagged for a closer look

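A difference between days set 33 of the 44 genes apart: their MI effect was higher at 3 days than at 1 day by the test of the difference in edgeR. At the ends of this set were Top2a, with a difference of log2 fold changes of 5.59, and Prim2, with 1.39. For Top2a the effect was 4.39 at 3 days and -1.20 at 1 day, and for Prim2 it was 2.51 and 1.11. With 1 library left out the call of Prim2 was kept without MI library B of 1 day (adjusted p = 0.0079) or sham library B of 3 days (0.049) and lost without any of the other 6 (0.052 to 0.15), and it was lost in transcript-table reads (0.13). The share of receptor genes with reads also differed between the MI libraries of 1 day, and its part in these differences was not tested.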

How the results depend on the processing

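No paired analysis was possible because the count columns carry no replicate number. The count of members called at 3 days was 41 to 44 under all alternatives, that of MI hearts between days 41 to 43 and that between sham hearts 0, except 1 with DESeq2. The count at 1 day moved most. In place of 11 (8 rises and 3 falls), it was 7 with limma-voom (5 rises) and 13 with library size alone (1 fall). With only the 4 libraries compared it was 4 of 42 tested (3 rises and 1 fall). The transcript reads gave 6 falls. With 1 library left out it was 3 to 24 (2 to 19 rises, 1 to 6 falls): 24 without MI library A of 1 day, 4 and 3 without sham libraries A and B of 1 day. The count for the difference was 20 to 39. A group left with 1 library is assumed to vary like the others. Single values reversed for Rpa1 at 3 days without MI library B of 3 days (-0.004; range with 1 library left out -0.004 to 0.453), for Mcm2 at 1 day with library size alone (0.014) or without MI library A of 1 day (0.154; range -0.867 to 0.154), and for Pcna at 1 day without MI library A (-0.093) or sham library A of 1 day (-0.045; range -0.093 to 0.315), none of them called. Pole2 and Pold1 at 1 day were each kept in 4 of 15 alternatives. The cause of these moves was not tested. Leaving out a library changed the number of libraries, the genes tested and the data together. The median over all genes at 1 day also moved, to 0.249 without MI library A of 1 day and -0.01 without MI library B. Shallow MI libraries of 1 day limit low members: 3 counts are 0.243 and 0.369 CPM there.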
